A study of Homo sapiens with 12 samples.

Results

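The matrix metalloproteases (MMPs), the ADAM and ADAMTS proteases, the ADAMTS-like proteins and the tissue inhibitors of metalloproteases (TIMPs) were examined in H1299 cells depleted of GAS41. They were taken from the deposited count table by their gene symbols alone, as every row whose symbol begins with MMP, ADAM, ADAMTS, ADAMTSL or TIMP followed by a digit. That gave 32 of the 13853 genes listed, namely 11 MMP rows, 10 ADAM rows, 6 ADAMTS rows, 3 ADAMTSL rows and 2 TIMP rows. Of these, 30 are protein-coding members of the families, 1 is the pseudogene ADAM1A and 1 is MMP24-AS1, which lies antisense to MMP24. In the gene name table used here, 98 symbols match this rule. The other human members of the families, MMP3, MMP7, ADAM12 and TIMP3 among them, had no row under their symbols and were not analysed.

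H1299 is a human non-small cell lung cancer line. The control group, shNT, carried a control vector (3 RNA libraries), and the knockdown group, shGAS41, was depleted of GAS41, the protein encoded by YEATS4 (3 RNA libraries). Cells of both groups were infected with viral vectors and selected with a drug for some days before use. The labels name 1 hairpin against GAS41. Nothing in them ties the 3 libraries of a group to separate cultures, and p-values therefore reflect only how far these libraries differ, possibly for technical reasons. The series also has 6 chromatin immunoprecipitation samples, which were not analysed here.

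Metalloproteases of these families hold a zinc ion in the active site, and most are made as inactive precursors. MMPs cut collagens and other matrix proteins, either as secreted enzymes or, in the membrane-type group, at the cell surface. ADAMs are transmembrane proteins, the catalytic ones among them release the outer parts of growth factors, receptors and adhesion molecules from cells, and ADAMTS enzymes are secreted and act on proteoglycans, procollagens and other matrix proteins. TIMPs are small secreted proteins that block the active site. In lung cancer these enzymes are known for their part in invasion and in the release of growth factor ligands.

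The libraries held 58629147 to 72747010 counts over the listed genes, and the spread between libraries corresponded to a biological coefficient of variation of 7.58%. Counts are given as CPM (counts relative to a library total scaled by TMM, edgeR's scaling factor) and were not divided by transcript length, so that a gene's level is compared between groups and not with the level of another gene. Sums over several genes, and a gene's share of such a sum, are of reads and depend on transcript length too. The YEATS4 counts were 3245, 2923 and 2820 with the control vector and 108, 127 and 116 with the hairpin, and the log2 fold change was −4.68 ± 0.09 (SE). Among marker genes checked for the cell line, VIM, KRT8, KRT18 and CDH2 were detected in all 6 libraries and KRT19 was not among the genes listed. Of 7 fibroblast markers only COL1A1 was listed (0.574 to 0.951 CPM in control and 1.47 to 1.92 CPM in knockdown libraries), of 7 leukocyte markers only ITGAM (4.54 to 6.43 and 10.0 to 13.6 CPM), and of 4 endothelial markers none. Both listed markers were higher after knockdown, and their part in the results below was not tested. A lower transcript count per cell and fewer expressing cells cannot be told apart in these bulk libraries.

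The promoters of the members with the largest changes are shown here because these genes moved by the greatest amounts in the comparison. Among the 6 called members with the largest absolute log2 fold changes and a mean of at least 1 CPM, RefSeq promoters (GRCh38.p14) were at hand for ADAM19, MMP11 and MMP15, all of which rose, but not for MMP9, TIMP2 and MMP2. The 250 bases before the annotated start are printed 5′ to 3′ on the strand of the gene, at chr5:157575776-157576025 (minus strand) for ADAM19, chr22:23772599-23772848 (plus strand) for MMP11 and chr16:58025504-58025753 (plus strand) for MMP15. Capitals mark GC boxes, GGGCGG or its complement CCGCCC, a motif bound by SP1-type factors.
ADAM19: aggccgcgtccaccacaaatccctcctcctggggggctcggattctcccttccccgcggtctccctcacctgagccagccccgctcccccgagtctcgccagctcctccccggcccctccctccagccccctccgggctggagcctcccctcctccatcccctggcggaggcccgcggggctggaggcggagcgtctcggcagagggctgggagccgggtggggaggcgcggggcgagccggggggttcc
MMP11: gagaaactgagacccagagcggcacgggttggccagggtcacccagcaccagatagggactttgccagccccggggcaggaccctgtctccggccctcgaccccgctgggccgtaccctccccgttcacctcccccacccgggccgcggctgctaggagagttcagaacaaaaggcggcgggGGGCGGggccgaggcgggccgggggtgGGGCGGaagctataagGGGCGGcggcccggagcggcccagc
MMP15: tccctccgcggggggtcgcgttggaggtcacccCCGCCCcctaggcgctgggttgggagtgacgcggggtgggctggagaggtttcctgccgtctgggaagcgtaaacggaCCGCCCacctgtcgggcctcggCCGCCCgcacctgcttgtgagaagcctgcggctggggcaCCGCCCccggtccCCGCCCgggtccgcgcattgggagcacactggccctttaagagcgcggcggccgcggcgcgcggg
MMP15 held 5 GC boxes and MMP11 held 3, whereas ADAM19, whose window was also rich in G and C (76.4%), held none. A promoter was at hand for 18 members, with MMP11 the only secreted MMP among them. MMP1, MMP2, MMP9, MMP13 and TIMP2 were among the members not searched. Of the 18 members, 16 held at least 1 GC box. The share was 42.6% of all 35116 promoters of the same length and 64% of the 14084 promoters of tested genes. The other motifs searched on both strands were the AP-1 site TGANTCA, the TATA box TATAAA and the E-box CACGTG, and the windows shown hold none of these. The AP-1 site and the TATA box were found in 0 of the 18 windows, against 4.28% and 5.58% of the promoters of tested genes, and the E-box was found in 2, ADAMTS6 and ADAM10 (8.24% of the promoters of tested genes). These are matches of letters within a window and not sites shown to be bound.

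Depletion of GAS41 was compared with the control vector to ask which transcripts change. Most listed transcripts of the metalloprotease families were higher after knockdown. Of the 32 members, 25 rose and 5 fell at an adjusted p under 0.05 by the quasi-likelihood test of edgeR, with p-values adjusted (Benjamini-Hochberg) over all 13846 genes tested, and 2 were not called. Changes were widespread in this comparison, with 68.1% of all genes called, 33.6% rising and 34.5% falling. The median log2 fold change was 0.65 over the members and −0.01 over all genes tested. A rise of at least 1 on the log2 scale was seen for 9 members (6.4% of all genes) and a fall of at least 1 for 2 members (3.71% of all genes). For 30 of the 32 members the knockdown libraries were all above or all below the control libraries, as was the case for 72.3% of all genes. The filter on low counts removed none of the members. The table itself holds only genes the authors listed, by a rule not given in the sources used here, and a gene expressed in 1 group only could have entered it through that group.

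**Figure D1:**
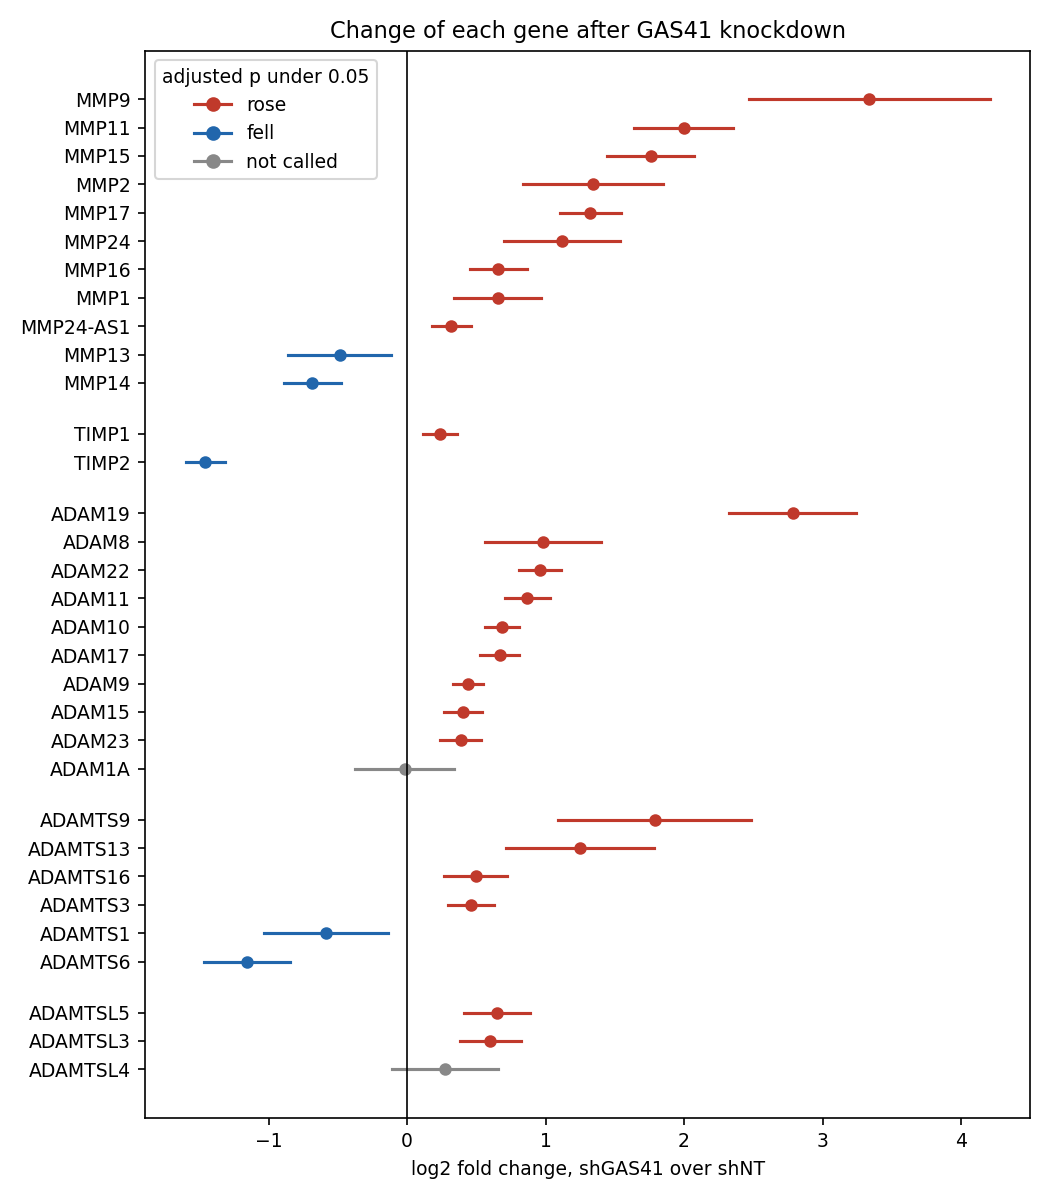
The log2 fold change of each of the 32 genes (x axis, knockdown over control) with its 95% confidence interval, grouped by family. The 25 genes that rose are in red, the 5 that fell in blue and the 2 not called in grey, and MMP9 and ADAM19 lie farthest to the right and TIMP2 farthest to the left.

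Among the secreted MMPs, the gelatinases and the stromelysin rose most. MMP9 (ENSG00000100985), gelatinase B, which cuts denatured collagen and type IV collagen of basement membranes, had 1.55, 3.55 and 3.56 CPM in the control libraries 1 to 3 and 20.3, 32.2 and 34.1 CPM in the knockdown libraries 1 to 3. Every knockdown library lay far above every control library, and library 1 was the lowest of its group in both groups. The mean went from 2.89 ± 1.16 to 28.9 ± 7.44 CPM (mean ± SD, n = 3 each), a 10.0-fold difference of means (log2 fold change 3.34 ± 0.36, SE; adjusted p = 0.000233). MMP2 (ENSG00000087245), gelatinase A, had 1.18, 0.935 and 0.692 CPM in control and 2.37, 1.95 and 2.91 CPM in knockdown libraries. Its groups did not overlap although the control values spread widely around a low level, and the log2 fold change was 1.34 ± 0.23 (SE; adjusted p = 0.000411). MMP11 (ENSG00000099953), stromelysin-3, which is activated inside the cell by furin, had 1.75, 1.68 and 1.42 CPM in control and 7.88, 5.81 and 5.75 CPM in knockdown libraries. The log2 fold change was 1.999 ± 0.161 (SE; adjusted p = 2.09e-06), with knockdown library 1 the highest of its group here, unlike for MMP9.

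The collagenases, which open the triple helix of fibrillar collagens, went both ways by smaller amounts. MMP1 (ENSG00000196611), interstitial collagenase, had 3.49, 3.79 and 4.02 CPM in control and 4.81, 6.09 and 6.88 CPM in knockdown libraries, and its log2 fold change was 0.65 ± 0.14 (SE; adjusted p = 0.00194). MMP13 (ENSG00000137745), collagenase 3, had 2.07, 1.82 and 2.16 CPM in control and 1.41, 1.64 and 1.25 CPM in knockdown libraries. The MMP13 groups lay close together without overlapping, and the fall of 0.49 on the log2 scale (adjusted p = 0.0250) was no longer called without control library 1 (adjusted p = 0.0623) or 3 (0.0759) or without knockdown library 1 (0.0504) or 3 (0.0892). The summed level of the 5 secreted MMPs listed was 11.2 ± 1.02 CPM in control against 45.1 ± 7.36 CPM in knockdown cells. MMP9 supplied 25.7% of these reads in control cells and 64.0% after knockdown.

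The membrane-type MMPs showed 1 fall among 4 rises. MMP14 (ENSG00000157227), MT1-MMP, a cell-surface collagenase that also activates pro-MMP2, had 110, 118 and 113 CPM in control and 59.6, 72.5 and 79.9 CPM in knockdown libraries. All 3 knockdown values lay below all control values, with a log2 fold change that was −0.68 ± 0.09 (SE; adjusted p = 0.000104). MMP15 (MT2-MMP), a transmembrane relative of MMP14, had 1.77, 2.14 and 1.49 CPM in control and 6.19, 6.25 and 5.84 CPM in knockdown libraries. The log2 fold change was 1.76 ± 0.14 (SE; adjusted p = 2.09e-06). MMP16 (MT3-MMP), also transmembrane, had 38.3, 43.8 and 51.2 CPM in control and 68.1, 73.6 and 68.6 CPM in knockdown libraries, and its log2 fold change was 0.66 ± 0.09 (SE). For both genes every knockdown library was above every control library.

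MMP17 (MT4-MMP), which is held in the membrane by a lipid anchor, rose from 3.40 ± 0.220 to 8.52 ± 0.295 CPM, with values of 3.64, 3.32 and 3.22 CPM against 8.70, 8.18 and 8.68 CPM. MMP24 (MT5-MMP), best known from the nervous system, had 1.66, 1.32 and 1.05 CPM in control and 2.57, 3.06 and 3.19 CPM in knockdown libraries. The log2 fold changes were 1.32 ± 0.10 for MMP17 and 1.12 ± 0.19 for MMP24 (SE). The antisense gene MMP24-AS1 went from 35.4 ± 2.44 to 44.2 ± 1.56 CPM, a rise of 0.32 ± 0.06 (SE) on the log2 scale. MMP24 and MMP24-AS1 overlap in RefSeq, and since no use of strand is stated, reads from the overlap cannot be assigned to either gene. Summed over the 5 membrane-type MMPs the level was 165 ± 8.30 CPM in control against 158 ± 11.5 CPM in knockdown cells, and the libraries of the groups overlapped. MMP14 supplied 69.0% of the reads in that sum in control and 44.6% in knockdown cells, and the share of reads from MMP16 was 27.0% in control and 44.3% in knockdown cells.

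**Figure D2:**
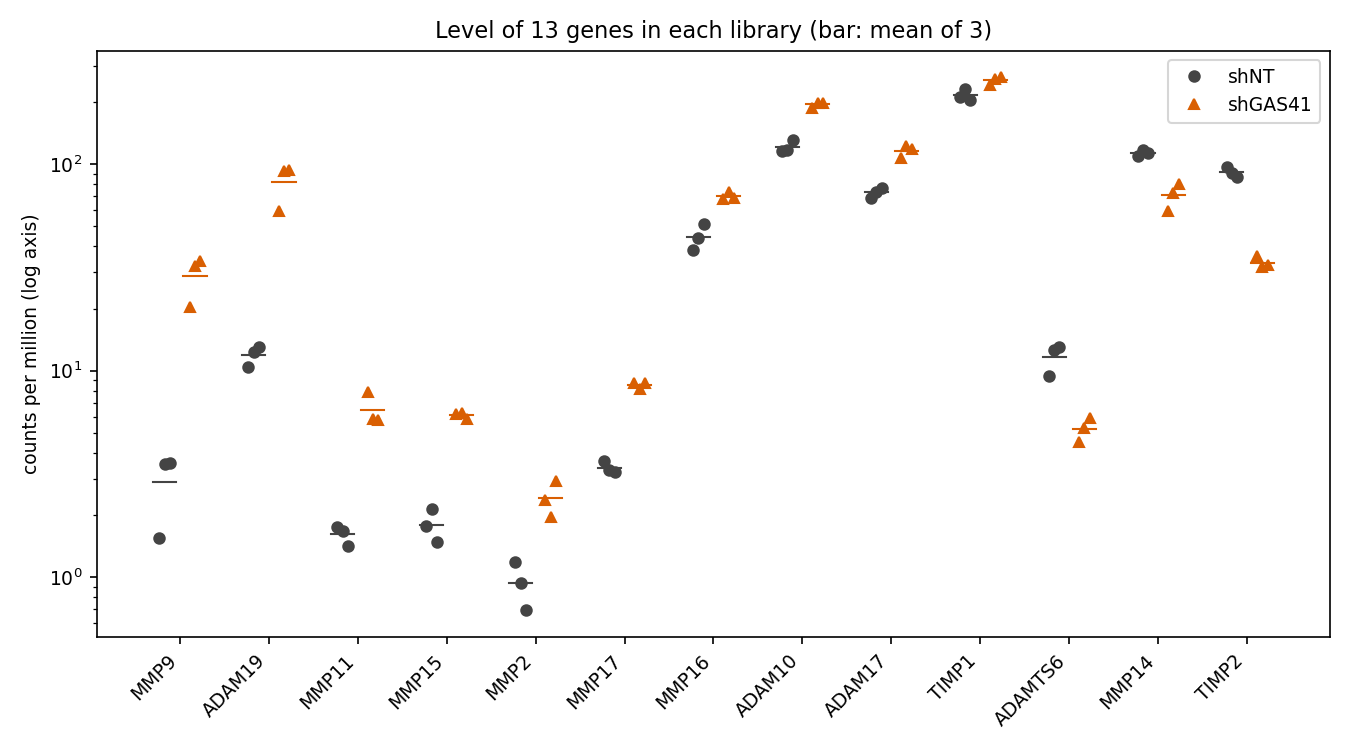
CPM (log axis) of 13 genes in each control library (circles) and each knockdown library (triangles), with horizontal lines at the means of 3 libraries. The 13 genes are a selection, without ADAM1A and ADAMTSL4, whose groups overlap, and without ADAMTS1 and MMP13, whose groups lie close. The groups do not overlap for any gene shown, as for 72.3% of all genes tested. ADAMTS6, MMP14 and TIMP2 are the ones shown with knockdown values below the control values.

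The 2 inhibitors moved in opposite directions. TIMP2 (ENSG00000035862), an inhibitor that also takes part in the activation of pro-MMP2 by MMP14 at the cell surface, had 97.4, 90.4 and 86.6 CPM in control and 35.8, 31.8 and 32.4 CPM in knockdown libraries. The groups lay far apart and the spread within each was small. The level was 2.74-fold lower after knockdown, with a log2 fold change that was −1.46 ± 0.06 (SE; adjusted p = 4.86e-08). TIMP1 (ENSG00000102265), which binds pro-MMP9 as well as active MMPs, had 211, 231 and 206 CPM in control and 243, 258 and 264 CPM in knockdown libraries. Its knockdown values stood just above its control values, and the rise was small, 0.24 ± 0.05 (SE; adjusted p = 0.00295). The summed level of both inhibitors was 308 ± 14.8 CPM in control against 288 ± 8.91 CPM in knockdown cells, with overlapping libraries. TIMP2 supplied 29.7% of the reads in that sum in control cells and 11.6% after knockdown.

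**Figure D3:**
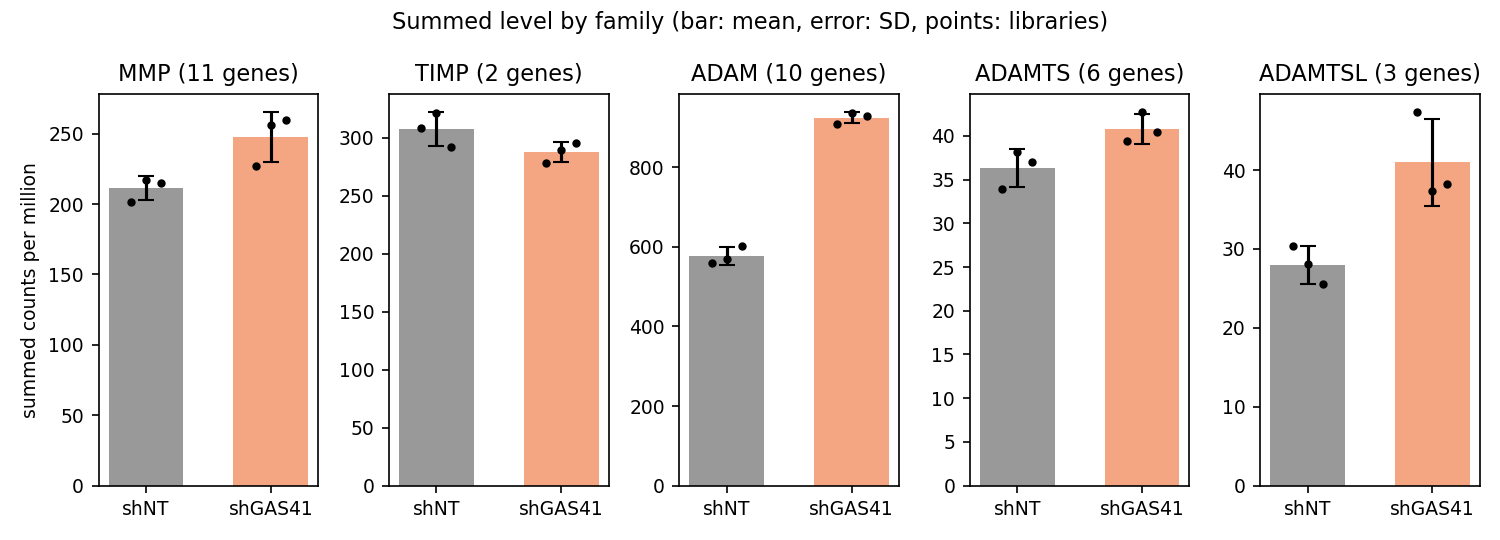
Summed CPM of the members of each family in control (grey) and knockdown (orange) cells, with bars for the mean of 3 libraries, error bars for the SD and a point for each library; each panel has its own scale. The ADAM sum went from 578 to 925 CPM, while the TIMP libraries overlap between the groups. The MMP sum includes the antisense gene MMP24-AS1, and the ADAM sum includes the pseudogene ADAM1A.

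All 6 listed ADAMs with a catalytic zinc site rose. The change was greatest for ADAM19 (ENSG00000135074), meltrin beta, a protease that can release neuregulins. Its values were 10.4, 12.3 and 13.1 CPM in control and 59.6, 92.8 and 94.1 CPM in knockdown libraries, so that library 1 was again the lowest of both groups. The mean was 6.88-fold higher and the log2 fold change was 2.78 ± 0.19 (SE; adjusted p = 1.08e-05). ADAM8, a protease known from leukocytes, rose from 1.24 ± 0.222 to 2.47 ± 0.390 CPM, with a log2 fold change of 0.98 ± 0.19 (SE).

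The 2 best known sheddases also rose. ADAM10 (ENSG00000137845), which cuts Notch receptors and many adhesion molecules, had 116, 117 and 130 CPM in control and 188, 199 and 198 CPM in knockdown libraries. ADAM17 (ENSG00000151694), the converting enzyme of TNF and of several EGF receptor ligands, had 68.8, 73.5 and 77.1 CPM in control and 108, 122 and 119 CPM in knockdown libraries. The groups of both genes were well apart, with log2 fold changes of 0.69 ± 0.05 and 0.67 ± 0.06 (SE), and confidence intervals from 0.57 to 0.81 and from 0.53 to 0.81. ADAM9, a broadly expressed sheddase, rose by 0.44 ± 0.05 from 253 ± 12.1 CPM, and ADAM15, which binds integrins through its disintegrin domain, rose by 0.41 ± 0.06 from 48.5 ± 3.51 CPM. Of the summed ADAM reads ADAM9 supplied 43.8% in control and 37.1% in knockdown cells.

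ADAMs that lack the catalytic site rose as well. ADAM11, ADAM22 and ADAM23 are known as binding partners of the secreted LGI proteins in the nervous system. ADAM22 had 45.1, 39.3 and 42.4 CPM in control and 89.3, 79.6 and 77.6 CPM in knockdown libraries (log2 fold change 0.96 ± 0.07, SE; adjusted p = 1.03e-06). ADAM11 had 11.8, 10.9 and 12.3 CPM in control and 21.6, 20.8 and 21.6 CPM in knockdown libraries, with a log2 fold change of 0.87 ± 0.07 (SE). For both genes every knockdown library was well above every control library. ADAM23 rose less, from 12.5 ± 0.211 to 16.4 ± 0.314 CPM (0.39 ± 0.07, SE). The pseudogene ADAM1A was not called, at 1.90 ± 0.295 CPM in control against 1.87 ± 0.0326 CPM in knockdown cells, with a 95% confidence interval of its log2 fold change from −0.38 to 0.34. The summed level of the 10 ADAM rows was 578 ± 23.1 CPM in control against 925 ± 13.8 CPM in knockdown cells, 1.60-fold higher.

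The ADAMTS genes split into 4 rises and 2 falls. ADAMTS6 (ENSG00000049192), a protease that acts on matrix microfibril proteins, had 9.48, 12.58 and 13.03 CPM in control and 4.53, 5.28 and 5.91 CPM in knockdown libraries. The knockdown values were below 6 CPM and the control values above 9 CPM, and the log2 fold change was −1.16 ± 0.14 (SE; adjusted p = 3.68e-05). ADAMTS1, which cuts the proteoglycans aggrecan and versican, went from 1.57 ± 0.259 to 1.05 ± 0.175 CPM, a fall of 0.58 on the log2 scale (adjusted p = 0.0252). Its groups came close, with the highest knockdown library at 1.25 CPM and the lowest control library at 1.31 CPM. It was no longer called without control library 1 (adjusted p = 0.0534) or 3 (0.0918) or without knockdown library 1 (0.0725) or 2 (0.0752).

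ADAMTS9, which also cuts versican, rested on few reads, with 11, 10 and 11 counts in control and 36, 48 and 28 counts in knockdown libraries. Its log2 fold change was 1.79 ± 0.31 (SE; adjusted p = 0.000503). ADAMTS13, the protease of von Willebrand factor, had 3.21, 1.69 and 1.60 CPM in control and 5.61, 5.39 and 4.62 CPM in knockdown libraries. Control library 1 stood apart from the other 2 control libraries, and the log2 fold change was 1.25 ± 0.24 (SE; adjusted p = 0.00105) with it and 1.67 without it. ADAMTS3, a procollagen N-proteinase that also takes part in the maturation of VEGF-C, rose by 0.46 ± 0.08 from 14.0 ± 0.972 CPM. ADAMTS16 rose by 0.50 ± 0.10 (SE) from 6.76 ± 0.552 CPM. The summed level of the 6 ADAMTS genes was 36.3 ± 2.18 CPM in control against 40.8 ± 1.71 CPM in knockdown cells, without overlap of the groups.

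The ADAMTS-like proteins share the non-catalytic part of ADAMTS enzymes and bind to matrix microfibrils without cutting. ADAMTSL3 had 7.80, 7.66 and 8.20 CPM in control and 13.6, 11.0 and 11.2 CPM in knockdown libraries (log2 fold change 0.60 ± 0.10, SE; adjusted p = 0.000325). ADAMTSL5 had 14.52, 12.97 and 10.97 CPM in control and 22.2, 18.7 and 19.6 CPM in knockdown libraries (log2 fold change 0.65 ± 0.11, SE; adjusted p = 0.000342). ADAMTSL4, a fibrillin-binding protein, had 8.09, 7.43 and 6.40 CPM in control and 11.5, 7.54 and 7.47 CPM in knockdown libraries. The ADAMTSL4 groups overlapped, since only knockdown library 1 was high, and the log2 fold change of 0.27 was not called (adjusted p = 0.178; 95% confidence interval −0.11 to 0.66). Without that library the log2 fold change was 0.04. For all 3 genes knockdown library 1 was the highest of its group.

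Genes that switch metalloproteases on or off were read from a list of inhibitors and activators. Of its 14 genes, 10 were among the genes listed in the deposited data. These held 5 rises and 2 falls around a median log2 fold change of 0.37. Over all genes the median was −0.01, with 33.6% rising and 34.5% falling. RECK, a membrane-anchored inhibitor of MMPs, rose from 12.4 ± 1.05 to 36.6 ± 1.804 CPM (1.56 ± 0.08, SE). FURIN, the convertase that activates MMP14, MMP11 and many ADAMs by removing their prodomains, rose from 61.1 ± 3.06 to 107 ± 1.78 CPM (0.81 ± 0.05, SE). PLAU, the urokinase that turns plasminogen into plasmin, rose from 281 ± 28.9 to 656 ± 58.8 CPM (1.22 ± 0.08, SE). Its receptor PLAUR went the other way, from 284 ± 7.47 to 229 ± 24.8 CPM (−0.31 ± 0.07, SE), and the convertase gene PCSK7 fell by 0.16 on the log2 scale (adjusted p = 0.0383). The fall count of this list dropped to 1 without control library 1 or 2 or without knockdown library 2.

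Genes for partners of ADAM17 and ADAM10 moved in both directions. Of 10 genes chosen, 9 were listed. They held 4 rises and 3 falls, and their median was 0.21 (all genes: 33.6% rising and 34.5% falling). The iRhom gene RHBDF1, whose product escorts ADAM17 out of the endoplasmic reticulum, rose from 13.3 ± 0.0215 to 29.6 ± 1.83 CPM (1.16 ± 0.07, SE), and the tetraspanin genes TSPAN15 (1.15 ± 0.08) and TSPAN14 (0.71 ± 0.05), whose products guide ADAM10, rose too. FRMD8, which codes for the protein that stabilises iRhom and ADAM17 at the cell surface, fell from 49.6 ± 2.68 to 20.2 ± 1.14 CPM (−1.30 ± 0.07, SE; adjusted p = 1.11e-07). TSPAN17, another tetraspanin of ADAM10, fell by 0.17 and the chaperone gene PDIA6 by 0.15 on the log2 scale. The PDIA6 groups overlapped. The fall count dropped from 3 to 1 without control library 2; the log2 fold change of FRMD8 lay between those of TIMP2 and ADAMTS6.

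Among known substrates of ADAM10 and ADAM17, 21 of 30 chosen genes were listed. Of these 21, 14 rose and 3 fell (median 0.49), beside 33.6% and 34.5% of all genes. APP, the amyloid precursor, rose from 625 ± 0.843 to 921 ± 14.9 CPM. The adhesion molecule gene L1CAM rose from 1.20 ± 0.315 to 7.27 ± 0.873 CPM, and the cytokine receptor subunit gene IL6ST from 279 ± 22.9 to 605 ± 61.0 CPM. The neuregulin gene NRG1 (−0.85 ± 0.09, SE) and the EGF receptor ligand gene TGFA (−0.22 ± 0.07) fell, as did the syndecan gene SDC1 (−2.40 ± 0.09). HBEGF, a growth factor precursor known to be cut by ADAM17, was not called, with 22.1 ± 4.18 CPM in control against 30.6 ± 9.001 CPM in knockdown cells (adjusted p = 0.141).

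Of 21 genes chosen as substrates and partners of the ADAMTS proteins, 13 were listed. These rose in 11 of 13 cases and fell in none (median 0.58). The shares over all genes were 33.6% rising and 34.5% falling. PAPLN, which codes for the ADAMTS-like matrix protein papilin, rose from 17.3 ± 2.07 to 60.0 ± 2.71 CPM (1.79 ± 0.08, SE), and VLDLR (1.35 ± 0.09), a lipoprotein receptor, and LTBP2 (1.27 ± 0.08), a microfibril protein, rose as well. VCAN, the versican gene, was not called, at 10.7 ± 2.24 CPM in control against 8.42 ± 1.92 CPM in knockdown cells (adjusted p = 0.116). Without knockdown library 1, VCAN was called as falling. In the authors' deposited table VCAN had a log2 fold change of opposite sign, 0.995, that was not called (adjusted p = 0.101). Of 12 other zinc proteases chosen, 6 were listed. Rises were seen for 4 of these 6 and falls for none (median 1.00), beside the same shares of all genes. The procollagen C-proteinase gene BMP1 had the smallest p, rising from 16.5 ± 0.295 to 62.2 ± 4.80 CPM (1.91 ± 0.07, SE). ECE1 (0.72 ± 0.05), which codes for an endothelin-converting enzyme, and TLL2 (1.27 ± 0.14), a relative of BMP1, rose too.

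**Figure D4:**
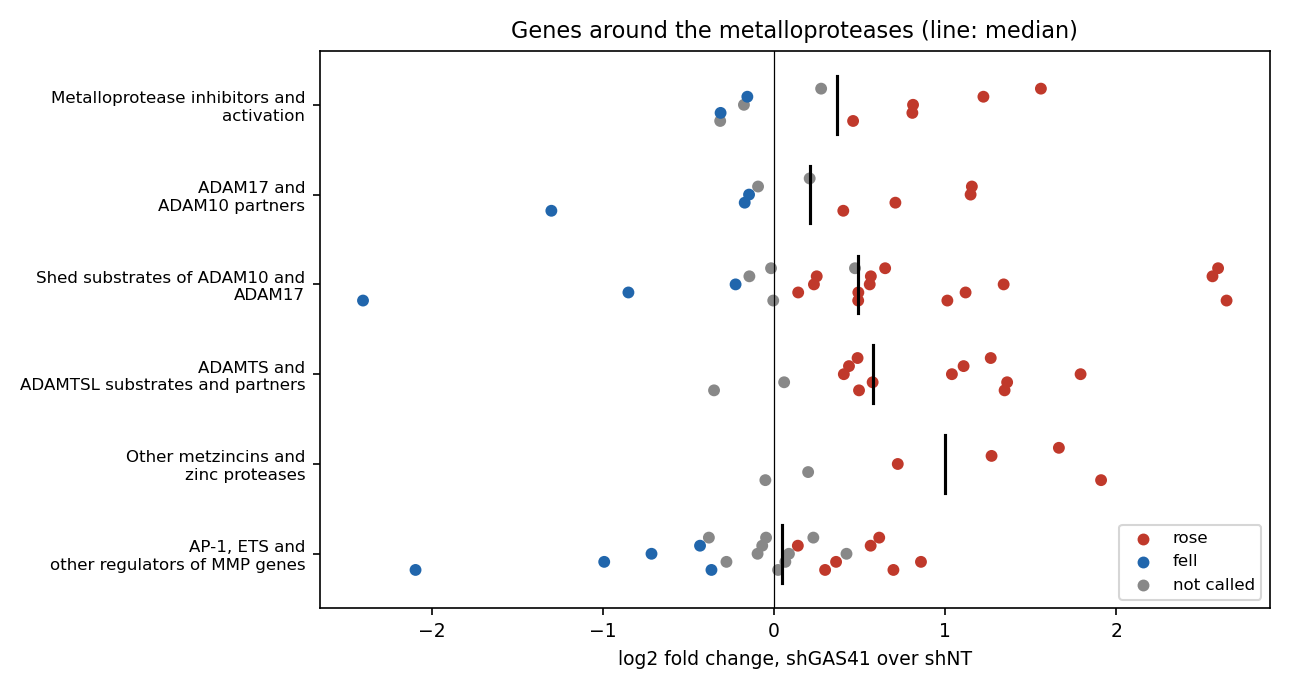
Log2 fold changes (x axis, knockdown over control) of the genes in 6 lists around the metalloproteases, 1 point per gene, red for genes that rose, blue for genes that fell and grey for genes not called, with a black line at each list's median. The medians run from 0.05 for the transcription regulators to 1.00 for the other zinc proteases.

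Transcription factors known to act on MMP genes did not share a direction. Of 23 factors chosen, 22 were listed, and they held 7 rises, 5 falls and 10 genes not called (median 0.05). Of all genes tested, 33.6% rose and 34.5% fell. FOSL1, an AP-1 subunit, rose from 499 ± 25.8 to 764 ± 45.9 CPM (0.62 ± 0.05, SE), its partner JUN rose by 0.36 ± 0.05, and STAT3 by 0.57 ± 0.05. ETV4, an ETS factor, fell from 65.5 ± 0.851 to 15.3 ± 1.53 CPM (−2.09 ± 0.07, SE), and CEBPB (−0.99 ± 0.12) and the AP-1 subunit gene JUND (−0.72 ± 0.11) fell too. Leaving out control library 1 raised the number of falls to 8.

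The authors' deposited table gives its own log2 fold changes for knockdown against control, and these differed from the values above for several members. It called 17 of the 32 members, all as rising, and none as falling, against 18.6% of all genes called as rising and 14.6% as falling there. In the authors' deposited table MMP9 had a log2 fold change of 2.52 (adjusted p = 0.000728) and ADAM19 one of 2.05 (adjusted p = 0.000329). For TIMP2 the authors' deposited table gives 0.36 (adjusted p = 0.761), although the count columns of the same table hold 7163, 5605 and 5129 counts in control and 2329, 2286 and 1871 counts in knockdown libraries. For MMP14 the authors' deposited table gives −0.25 (adjusted p = 0.0816) and for ADAMTS6 −0.34 (adjusted p = 0.182). The sign differed for 5 members, ADAM1A, ADAM23, ADAMTS16, MMP13 and TIMP2. Of the 32 members, 16 were called in both, 14 only from the counts and ADAMTSL4 only in the authors' deposited table (0.88, adjusted p = 0.0200). Of all 13846 genes, 4403 were called in both, 5022 only from the counts and 192 only in the authors' deposited table. The 14 members called only from the counts were ADAM8, ADAM9, ADAM17, ADAM23, ADAMTS1, ADAMTS3, ADAMTS6, ADAMTS16, MMP1, MMP13, MMP14, MMP16, TIMP1 and TIMP2. Genes of the lists differed in the authors' deposited table too. Opposite signs without a call included FRMD8 (0.06, adjusted p = 0.887), NRG1 (0.10, 0.929) and JUND (0.46, 0.499). SDC1 (−0.37, 0.429), PLAU (0.43, 0.561), APP (0.26, 0.506) and FOSL1 (0.195, 0.752) kept their sign but were not called. The same held for FURIN, PCSK7, TGFA, IL6ST, VLDLR, CEBPB and JUN (adjusted p from 0.0661 for VLDLR to 0.977 for JUN). RECK (1.35), BMP1 (1.63) and ETV4 (−1.48) were called there in the direction seen from the counts. No source used here says how the authors' values were derived, or whether they came from these count columns.

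**Figure D5:**
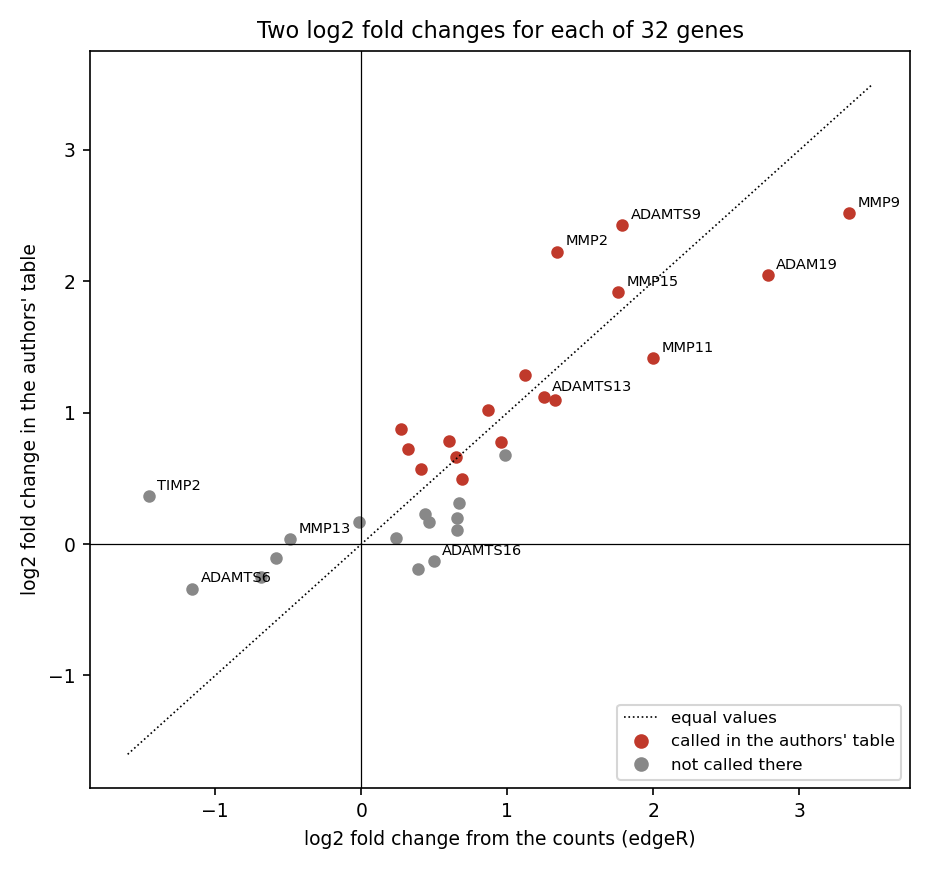
The log2 fold change fitted to the counts (x axis) and the one in the authors' deposited table (y axis) for each of the 32 genes, red where the authors' adjusted p is under 0.05, with a dotted line of equal values. TIMP2 lies at −1.46 on the x axis and 0.36 on the y axis, and MMP9 and ADAM19 lie below the dotted line.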

How the data were processed

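RNA libraries of H1299 cells, 3 per group, were analysed from 1 table that the authors deposited, with raw counts per Ensembl gene and library. The same table holds the authors' log2 fold change, p-value and adjusted p-value per gene, and its name points to edgeR. Per the submitters' processing notes, the series used HTSeq, TopHat2 2.0.10, Bowtie2 2.1.0, MACS 1.4.2 and CASAVA 1.8.2 on hg19. The annotation, the use of strand and the tool behind the counts are not given in any source used here, so reads of overlapping genes may be shared (TIMP1 with SYN1, ADAM17 with IAH1, ADAM9 with TM2D2, ADAMTS13 with REXO4 and ADAM1A with MAPKAPK5, by RefSeq spans).

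Groups came from the sample titles. Counts of all 13846 genes left by filterByExpr, which removed 7, were fitted with edgeR 4.0.16 (limma 3.58.1, R 4.3.3): TMM, robust quasi-likelihood, knockdown against control, no block, Benjamini-Hochberg adjustment at 0.05. An SE is the log2 fold change divided by the square root of F. Values in CPM are mean ± SD, and log2 fold changes are given ± SE. The code was tested on simulated data. All 32 member identifiers matched the gene name table. Named were YEATS4, every member, and in each list up to 3 rising and 3 falling genes of smallest p; HBEGF and VCAN were chosen after their values were seen. Members and lists were chosen with earlier results of these data known. Alternatives were DESeq2 1.42.0, other scalings and filters, no robust estimation, a replicate block and leaving out each library. Libraries of a group differed beyond sampling noise (chi-square per degree of freedom 4.24 to 28.4). In both groups the value was smallest between libraries 2 and 3 (9.40 in control, 4.24 in knockdown). Knockdown library 1 gave 24.9 against library 2 and 28.4 against library 3. One cell line marker is not reported here.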

Additional observations from a re-analysis of the deposited data

How the results depend on the processing

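Of the 32 members, 28 kept direction and call in every alternative fitted to the counts (13 per gene, 12 for ADAMTS9, which the filter of 1 CPM in 3 libraries removed). The exceptions were MMP13 and ADAMTS1, each lost in 4 fits that left out 1 library, ADAMTSL4, which was called with the replicate block (0.26, adjusted p = 0.0115; 0.0115 to 0.792 over its alternatives), and the uncalled pseudogene ADAM1A, whose sign turned without control library 1 (0.02) or 2 (0.086; range −0.13 to 0.086 over the fits without 1 library). Rising members numbered 24 to 26 under the alternatives fitted. Falling members numbered 3 to 5 when single libraries were left out (3 without control library 1 or 3 or knockdown library 1). Calls of the authors' deposited table, an alternative chosen after seeing the data, gave 17 rising and 0 falling members. They gave 2577 rising and 2018 falling genes in all, against 4655 and 4770 from the counts. Called only from the counts were 14 of the 32 members and 5022 of all 13846 genes. Dropping ADAM1A and MMP24-AS1, also chosen after seeing the data, left 24 rises and 5 falls. The replicate block gave 5134 rising and 5260 falling genes and 26 rising members. Same-numbered libraries deviated together for number 1 (r = 0.45 across genes) but hardly for 2 (0.08) and 3 (0.09), so the numbers were not taken to pair the libraries. Control library 3 with knockdown library 2, and control library 2 with knockdown library 3, each gave r = 0.27. The block raised the falls among MMP regulators from 5 to 8 and those among ADAMTS substrates and partners from 0 to 1 (VCAN). Depth limits ADAMTS9 most, which had the fewest counts of the members (10 to 48 per library).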

Other observations

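Of the 1399 genes called with an absolute log2 fold change of at least 1, 25 had the opposite sign in the authors' deposited table, and TIMP2 was the only one of the 11 such members among them. Over all 13846 genes the sign differed for 17.5%.

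No library was the lowest or highest throughout the members. Control library 1 was the lowest of its group for 12 members and the highest for 10, and knockdown library 1 was the lowest for 13 and the highest for 13. The coefficient of variation between libraries of 1 group had a median over members of 8.41% in control and 9.24% in knockdown cells, and was highest for ADAMTS13 in control cells (41.6%) and for ADAMTSL4 in knockdown cells (26.4%).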
